A study of Mus musculus with 21 samples.

Results

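Genomic imprinting leaves certain mammalian genes active mainly from the copy inherited from 1 parent. The genes described here are 35 mouse imprinted genes, of which 22 are expressed from the paternal allele and 12 from the maternal allele. The remaining gene is Gnas, which codes for the stimulatory G protein alpha subunit and has transcripts from either allele or both, depending on the promoter and the tissue. They were taken by name, from general knowledge of imprinting, as rows of both deposited tables. The cell-state table holds 34 of the 35 among its 21161 gene names, and the lactate table holds all 35 among 55291 names. Kcnq1ot1 is the member with no row in the cell-state table, in which every entry reached 0.5 FPKM in at least 1 library.

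RNA was sequenced from mouse cells of a line named OG2 in the labels. The cell-state table compares 4 kinds of cell, each given by its short name here: 2-cell-like cells (2CLCs), which carry transcripts of the early embryo in culture, embryonic stem cells or ESCs, the more advanced, primed EpiSCs (stem cells of the epiblast), and fibroblasts of the mouse embryo (MEFs), all labelled wild type. The lactate table compares ESCs with 0 mM (labelled wild type), 60 mM and 80 mM sodium lactate. Each group has 3 libraries, and the labels name no culture medium, passage, sex or length of exposure to lactate. The FPKM unit (fragments scaled by transcript length and library size) sums the transcripts of both alleles, so the parental origin stated here is background and was not measured. Levels are FPKM in replicates 1, 2 and 3, in that order, or mean ± SD (n = 3), and differences are on the log2(FPKM + 1) scale with the standard error of the limma fit. A gene was called when its p-value, adjusted over all genes tested in the comparison, was under 0.05. The labels do not state whether libraries of a group are separate cultures, and the p-values cover no more than the spread among these libraries, which may be technical.

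The labels matched the marker genes. Summed over 6 genes each, markers of 2CLCs reached 10648 to 11827 FPKM in 2CLCs and at most 4.60 in the other states, and EpiSC markers reached 540.2 to 649.8 FPKM in EpiSCs and at most 42.4 elsewhere. The 8 fibroblast markers summed to 964.0 to 976.0 FPKM in MEFs and to at most 12.9 in the other states. The 6 ESC markers summed to 1516 to 1526 FPKM in ESCs and to at most 37.3 in EpiSCs and MEFs. In 2CLCs they still summed to 884 to 984 FPKM. Summed FPKM per library lay between 375926 and 519915 for the cell states and between 396792 and 409131 for lactate, and the read depth is unknown. EpiSC replicate 1 stood apart, with a Pearson correlation across genes of 0.973 with each of the other EpiSC libraries, against 0.995 between those. Every called EpiSC difference of a member kept its call without that library. The values without it are given below for Mirg, Ascl2 and Mest. Without it the log2 differences from ESCs were 2.12 for Igf2, -1.57 for Peg10 and -1.28 for Zdbf2. In bulk RNA, fewer cells that express a gene and less RNA per cell cannot be told apart.

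Imprinted genes lie mostly in clusters under a control region whose DNA is methylated in either the sperm or the egg. That mark is kept through the loss of methylation after fertilization with the help of the zinc finger proteins ZFP57 and ZFP445, their partner TRIM28 and the maintenance methyltransferase DNMT1. Many paternally expressed members promote growth of the embryo and placenta and many maternally expressed members restrain it, and in mouse ESCs these marks are known to be labile in culture. The 35 members fall in 20 clusters or lone genes on 10 chromosomes in GENCODE M21 on the GRCm38 assembly.

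Promoter sequences are shown first for some members that moved with lactate or between states and are known to have a differentially methylated region at their start. The hexamer TGCCGC is the core of the ZFP57 recognition motif, and it is capitalized wherever it or its reverse complement GCGGCA occurs in the 250 bases before a RefSeq start site (GRCm38.p6), written 5′ to 3′ on the gene's strand. Mest codes for a hydrolase-like protein of mesoderm, Plagl1 for a zinc finger transcription factor, Mcts2 for a translation factor copied by retrotransposition, and Meg3 is a long noncoding RNA. The Usp29 window is shown because it runs into the start of Peg3 on the other strand, and it holds no copy of the hexamer. Other members that moved, such as Snrpn, Nnat, Zrsr1, Inpp5f and Grb10, had windows without the hexamer and are not shown. The windows printed thus hold it more often than those of members at large.
Mest, chr6:30737800-30738049, plus strand: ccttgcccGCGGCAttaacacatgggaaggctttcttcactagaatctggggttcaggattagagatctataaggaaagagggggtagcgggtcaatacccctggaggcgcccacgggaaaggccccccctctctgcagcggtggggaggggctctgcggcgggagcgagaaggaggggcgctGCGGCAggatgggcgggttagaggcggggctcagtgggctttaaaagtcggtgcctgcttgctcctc
Plagl1, chr10:13090582-13090831, plus strand: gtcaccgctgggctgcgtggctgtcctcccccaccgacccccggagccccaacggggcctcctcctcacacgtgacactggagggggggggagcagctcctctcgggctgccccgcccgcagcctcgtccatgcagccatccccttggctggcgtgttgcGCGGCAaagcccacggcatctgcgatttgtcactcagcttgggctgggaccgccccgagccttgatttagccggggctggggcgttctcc
Mcts2, chr2:152686898-152687147, plus strand: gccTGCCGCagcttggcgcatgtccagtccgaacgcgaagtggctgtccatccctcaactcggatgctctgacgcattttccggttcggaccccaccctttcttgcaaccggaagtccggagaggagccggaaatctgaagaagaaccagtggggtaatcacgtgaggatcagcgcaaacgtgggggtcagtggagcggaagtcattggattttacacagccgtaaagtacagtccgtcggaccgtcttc
Meg3, chr12:109540746-109540995, plus strand: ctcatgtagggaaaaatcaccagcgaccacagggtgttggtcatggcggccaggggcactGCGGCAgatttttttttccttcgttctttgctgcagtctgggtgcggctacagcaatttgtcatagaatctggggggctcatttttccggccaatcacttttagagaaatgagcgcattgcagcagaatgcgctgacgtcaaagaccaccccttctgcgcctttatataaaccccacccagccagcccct
Usp29, chr7:6730333-6730582, plus strand: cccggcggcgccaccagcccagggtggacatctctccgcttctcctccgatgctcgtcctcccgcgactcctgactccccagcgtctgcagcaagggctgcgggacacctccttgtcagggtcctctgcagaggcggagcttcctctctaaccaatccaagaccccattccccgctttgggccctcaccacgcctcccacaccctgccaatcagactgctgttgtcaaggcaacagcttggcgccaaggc

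RefSeq windows were used for 29 members, and 7 of them (24.1%) had the hexamer on either strand in at least 1 window: Mcts2, Meg3, Mest, Nap1l5, Plagl1, Zdbf2 and Zim1. Of all 27025 genes with a window, 9.84% had it. By window the shares were 17.4% of 46 windows of members and 8.68% of all 32851, and the median number of CpG dinucleotides was 9 in members' windows and 6 in all. The windows of Peg3 and Usp29 overlap by 163 bases. A match describes the letters of a window and was not tested as a binding site. Cdkn1c, H19, Peg10, Peg13 and Sgce had no window. Windows on chromosome 18, where Impact lies, were left out for members and not for the shares over all genes.

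Against ESCs, the maternally expressed members were mostly higher in EpiSCs and MEFs, and the paternally expressed members were divided. In EpiSCs 9 of 11 tested maternal genes were called higher and none lower, and in MEFs 9 were higher and 1, Phlda2, lower. Paternal genes were called higher and lower in 8 and 12 of 20 in EpiSCs and in 10 and 8 of 20 in MEFs. In 2CLCs 5 maternal genes were higher and 1 lower, and 3 paternal genes were higher and 10 lower. Gnas was called higher in EpiSCs and MEFs. In all, 32 of the 34 members passed the filter of 1 FPKM in 3 libraries, and Asb4 and Nap1l5 did not. Airn, Usp29, Zim1 and Peg13 passed only through MEFs, where they were high, so they had to be higher there. H19, Igf2, Mirg, Sgce, Magel2, Ascl2, Cdkn1c and Slc22a18 did not reach 1 FPKM in all ESC libraries and passed through libraries of other states. Their rises in the states where they passed thus follow in part from the filter. Counts over the tested members therefore support nothing by themselves.

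These counts were read against all 16358 genes tested. In EpiSCs 18 members were called higher, where 33.2% of all genes were, and 12 lower, where 26.5% were. In MEFs 20 were higher (all genes 34.4%) and 9 lower (40.9%), and in 2CLCs 8 were higher (20.1%) and 11 lower (56.4%). With a change of at least 1 on the log2 scale, 15 members were higher and 8 lower in EpiSCs (all genes 12.9% and 7.90%), 17 higher and 6 lower in MEFs (21.2% and 20.5%), and 4 higher and 6 lower in 2CLCs (12.5% and 26.5%). The median difference of tested members was 0.69 in EpiSCs (all genes 0.01), 1.497 in MEFs (-0.07) and -0.08 in 2CLCs (-0.46). For maternal genes alone these medians were 2.16, 3.47 and 0.42, and for paternal genes -0.63, 0.26 and -0.38. Without MEF replicate 1, 2 or 3, members that passed only through MEFs were no longer tested, and the median in MEFs was 0.66, 0.50 or 0.64, with a paternal median of -0.21, -0.22 or -0.19.

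Values in 2CLCs depended on scaling more than those in the other states. The median over all genes was -0.46 as deposited and 0.04 after median-of-ratios scaling, and the share of calls that were higher went from 26.3% to 54.8%. After that scaling 18 members were called higher and 8 lower in 2CLCs (all genes 38.4% and 31.7%). Maternal genes were then 6 higher and none lower of 11, and paternal genes 11 higher and 8 lower of 21. The majority of paternal calls was thus lower as deposited and higher after that scaling, as it was over all genes. Of the paternal genes called lower as deposited, Snrpn alone was then called higher and Peg3 was not called. The others stayed lower, and most of the added higher calls were of genes not called before. After quantile normalization paternal genes were 5 higher and 10 lower of 20 (all genes 3840 and 8261 of 16375). Among genes not called in 2CLCs as deposited, those called higher after median-of-ratios scaling were Dlk1 (0.81), Gnas (0.72), Grb10 (0.70), Plagl1 (0.64), Mest (0.55), Ndn (0.41), Usp29 (0.29) and Airn (0.28). Nap1l5, which passed the filter only after that scaling, was then higher too (0.42). Statements below that a gene was not called in 2CLCs therefore hold on the deposited scale, and for genes called there the rescaled value is given where it changed the call or moved by more than 1.5 times.

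**Figure D1:**
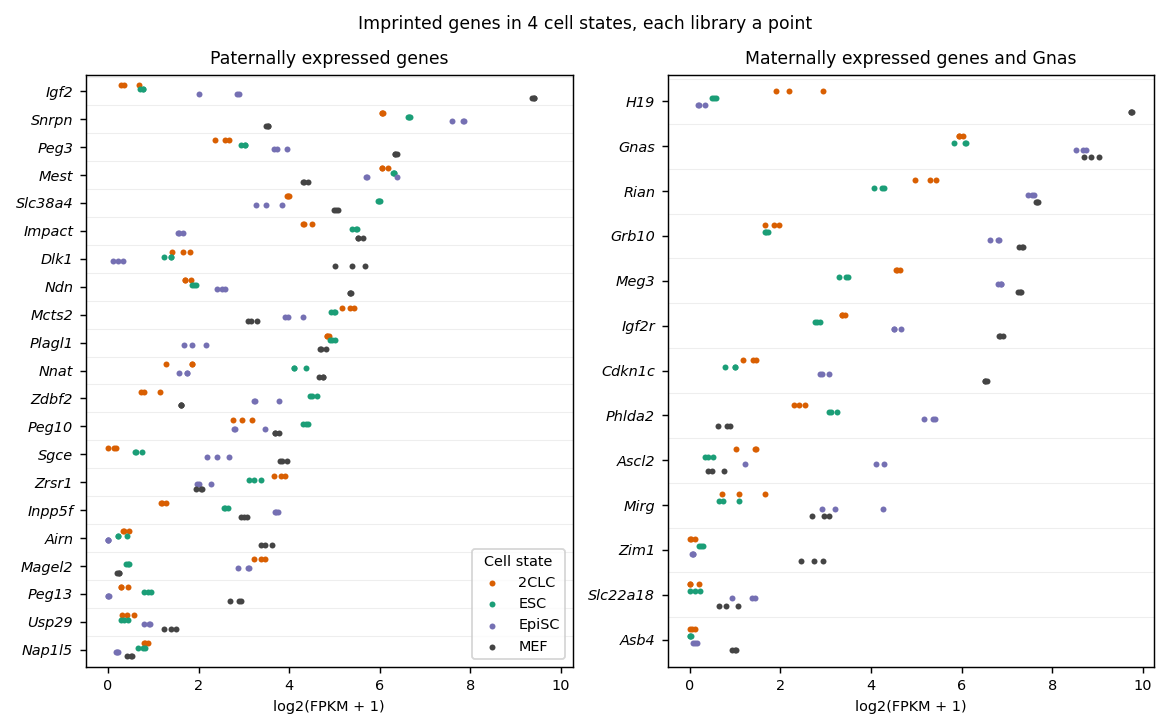
Levels of the imprinted genes in the 4 cell states, on a log2(FPKM + 1) axis, with each library a point and genes ordered by their highest mean. H19, Igf2, Grb10, Cdkn1c and Igf2r sit far to the right in MEFs, while Snrpn and Phlda2 are highest in EpiSCs and Zdbf2 and Slc38a4 are highest in ESCs.

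The insulin-like growth factor axis held the members with the widest range. Igf2 (chr7:142650766-142666816, minus strand) codes for the fetal growth factor IGF2, and H19 (chr7:142575529-142578143, minus strand) is a maternal long noncoding RNA whose start lies 88.7 kb from that of Igf2 and shares its enhancers. H19 stood at 0.404, 0.453 and 0.499 FPKM in ESCs, 2.72, 3.53 and 6.7 in 2CLCs, 0.142, 0.268 and 0.128 in EpiSCs and 871, 852 and 860.2 in MEFs. All MEF libraries were far above every other library, and all 2CLC libraries were above all ESC libraries. The difference from ESCs was called in MEFs (log2 difference 9.21 ± 0.20, adjusted p = 5.88e-12) and in 2CLCs (log2 difference 1.80 ± 0.20, adjusted p = 7.4e-06), and was -0.30 in EpiSCs (adjusted p = 0.227). Igf2 stood at 0.627, 0.695 and 0.708 FPKM in ESCs, 0.609, 0.227 and 0.27 in 2CLCs, 3.03, 6.2 and 6.42 in EpiSCs and 676, 654 and 674 in MEFs. Its EpiSC libraries lay above those of ESCs (log2 difference 1.84 ± 0.20, adjusted p = 1.12e-05), and its MEF libraries above all others (log2 difference 8.64 ± 0.20, adjusted p = 8.57e-12). In EpiSCs the neighbours therefore stood apart, with Igf2 7.71 times its ESC mean and H19 listed at 0.179 FPKM.

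H19 is also the host of miR-675, whose mature forms are shown because the H19 transcript is their precursor, with the seed (bases 2 to 8) in capitals. The deposited tables measure the host RNA, not the mature forms.
mmu-miR-675-5p: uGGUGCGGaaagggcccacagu
mmu-miR-675-3p: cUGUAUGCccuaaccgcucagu

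Igf2r (chr17:12682406-12769664, minus strand) codes for the receptor that takes IGF2 to lysosomes. It stood at 6.03, 5.82 and 6.29 FPKM in ESCs, 9.3, 9.69 and 9.22 in 2CLCs, 24.5, 21.8 and 21.9 in EpiSCs and 119, 115 and 113 in MEFs, and the 4 states did not overlap. It was called higher in 2CLCs (log2 difference 0.56 ± 0.06, adjusted p = 3.95e-06, 1.25 after median-of-ratios scaling), EpiSCs (log2 difference 1.75 ± 0.06, adjusted p = 7.99e-10) and MEFs (log2 difference 4.05 ± 0.06, adjusted p = 3.06e-13). Airn (chr17:12741311-12860136, plus strand) is the paternal noncoding RNA that silences Igf2r on the paternal copy, and it overlaps Igf2r by 28354 bases on the opposite strand. Airn stood at 0.344, 0.165 and 0.172 FPKM in ESCs, 0.385, 0.269 and 0.258 in 2CLCs, 0, 0 and 0 in EpiSCs and 11.3, 10.1 and 9.43 in MEFs. It was high in MEFs alone (log2 difference 3.20 ± 0.08, adjusted p = 1.96e-11) and was listed at 0 in every EpiSC library, where the difference of -0.29 (adjusted p = 0.00946) was no longer called with a pseudocount of 5 (adjusted p = 0.203). Reads of such overlapping genes cannot be told apart unless counting used strand, which the sources used here do not state.

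Grb10 (chr11:11930508-12038683, minus strand), an adaptor that dampens insulin and IGF receptor signalling, had among the steepest rises of the maternal genes. It stood at 2.19, 2.16 and 2.32 FPKM in ESCs, 2.62, 2.9 and 2.14 in 2CLCs, 98.1, 112 and 112 in EpiSCs and 153, 162 and 159.9 in MEFs. ESC and 2CLC libraries overlapped (log2 difference 0.14 ± 0.08, adjusted p = 0.148; 0.70, adjusted p = 1.53e-05 after median-of-ratios scaling), while every EpiSC and MEF library was above 98 FPKM (log2 difference 5.07 ± 0.08, adjusted p = 4.49e-12 in EpiSCs, log2 difference 5.63 ± 0.08, adjusted p = 3.12e-13 in MEFs). Plagl1 (chr10:13060504-13131694, plus strand), the paternal transcription factor known to act on other imprinted genes, went the other way in EpiSCs alone. It stood at 29, 31.3 and 29.9 FPKM in ESCs, 27.3, 27.6 and 28.5 in 2CLCs, 2.64, 3.47 and 2.18 in EpiSCs and 25.2, 27.2 and 24.5 in MEFs, and was called lower in EpiSCs (log2 difference -3.06 ± 0.10, adjusted p = 8.71e-10) and not called in 2CLCs on the deposited scale (adjusted p = 0.358; 0.64, adjusted p = 0.000166 after median-of-ratios scaling) or in MEFs (adjusted p = 0.0707). Of 12 other genes of the IGF axis (ligand, receptors, adaptors and binding proteins), 9 were called higher and 1 lower in EpiSCs (all genes 33.2% and 26.5%), 9 higher and 2 lower in MEFs (34.4% and 40.9%), and 3 higher and 4 lower in 2CLCs (20.1% and 56.4%; after median-of-ratios scaling 7 higher and 2 lower). Among them Igfbp3, an IGF binding protein, was higher in all 3 states, at 2.99 ± 0.363 FPKM in ESCs, 60.2 ± 1.31 in 2CLCs, 67.5 ± 19.5 in EpiSCs and 83.3 ± 7.07 in MEFs.

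In the Dlk1-Meg3 cluster on chromosome 12, the maternal noncoding RNAs rose together in EpiSCs and MEFs while the paternal Dlk1 rose in MEFs and fell in EpiSCs. Dlk1 (chr12:109452823-109463336) codes for a Notch-related membrane protein, and Meg3 (chr12:109541001-109571726), Rian (chr12:109603940-109661716) and Mirg (chr12:109729764-109749460) follow it on the plus strand. Within these transcripts the annotation places 1 miRNA hairpin in Meg3, 3 in Rian and 14 in Mirg. Meg3 stood at 10.2, 9.84 and 8.78 FPKM in ESCs, 22.5, 22.8 and 24 in 2CLCs, 115, 111 and 116 in EpiSCs and 155, 158 and 150.4 in MEFs. The states did not overlap, and Meg3 was higher than in ESCs in 2CLCs (log2 difference 1.18 ± 0.06, adjusted p = 5.99e-09), EpiSCs (log2 difference 3.44 ± 0.06, adjusted p = 5.89e-12) and MEFs (log2 difference 3.87 ± 0.06, adjusted p = 3.73e-13). Rian stood at 18.6, 17.8 and 15.7 FPKM in ESCs, 30.6, 38.3 and 42.5 in 2CLCs, 193, 175 and 186 in EpiSCs and 206, 201 and 199 in MEFs, and was higher in the same states (log2 difference 1.04 ± 0.10, adjusted p = 2.73e-06 in 2CLCs, log2 difference 3.34 ± 0.10, adjusted p = 4.79e-10 in EpiSCs, log2 difference 3.47 ± 0.10, adjusted p = 7.46e-11 in MEFs). After median-of-ratios scaling the differences in 2CLCs were 1.91 for Meg3 and 1.79 for Rian.

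Mirg stood at 0.67, 0.565 and 1.11 FPKM in ESCs, 0.624, 1.12 and 2.16 in 2CLCs, 18.2, 8.25 and 6.6 in EpiSCs and 5.46, 7.38 and 6.85 in MEFs. It was called higher in EpiSCs (log2 difference 2.64 ± 0.33, adjusted p = 3.16e-05) and MEFs (log2 difference 2.09 ± 0.33, adjusted p = 0.000115), and its 2CLC and ESC libraries overlapped (adjusted p = 0.388). EpiSC replicate 1 held the highest Mirg value, and without it the EpiSC difference was 2.25. Dlk1 stood at 1.62, 1.62 and 1.37 FPKM in ESCs, 2.5, 1.68 and 2.13 in 2CLCs, 0.0721, 0.173 and 0.251 in EpiSCs and 49.8, 31.2 and 41.2 in MEFs. Its EpiSC libraries were below those of ESCs (log2 difference -1.12 ± 0.16, adjusted p = 8.45e-05) and its MEF libraries above (log2 difference 4.02 ± 0.16, adjusted p = 6.45e-10), and the 2CLC difference of 0.28 was not called as deposited (adjusted p = 0.122) and was 0.81 after median-of-ratios scaling (adjusted p = 0.000922). In EpiSCs the maternal Meg3 was thus 11.9 times and the paternal Dlk1 0.108 times its ESC mean.

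**Figure D2:**
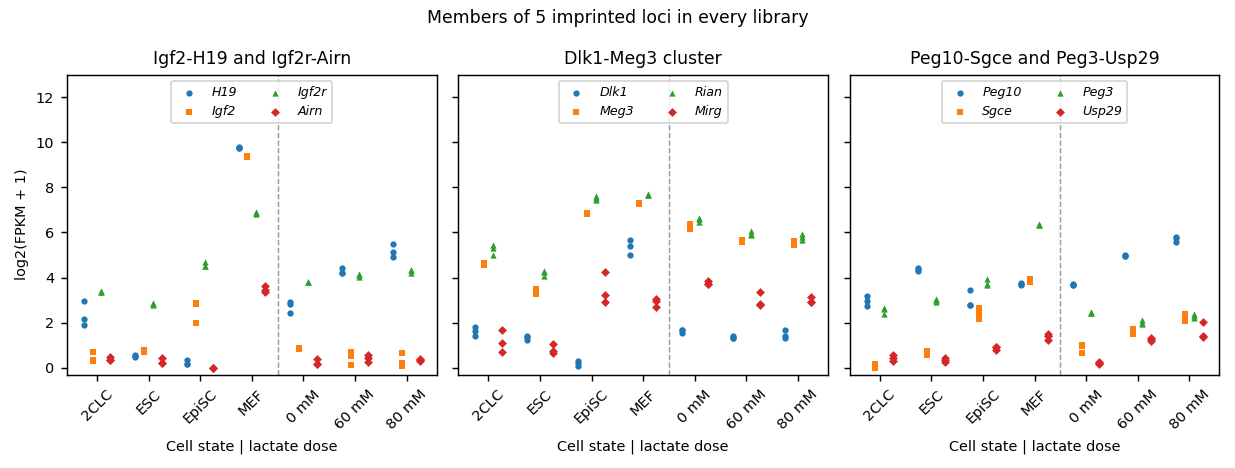
Levels of 12 members of 5 imprinted loci in every library of both tables, on a log2(FPKM + 1) axis, with the cell states left and the lactate doses right of the dashed line. Meg3 and Rian are high in EpiSCs and MEFs and higher at 0 mM than in the ESC libraries of the other table, and H19, Peg10 and Sgce rise from 0 to 80 mM.

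The Kcnq1ot1 cluster of chromosome 7 holds maternal genes that restrain growth, and they differed in the state where they were highest. Cdkn1c (chr7:143458339-143461050, minus strand), the cyclin-dependent kinase inhibitor p57, stood at 0.989, 0.708 and 0.994 FPKM in ESCs, 1.25, 1.76 and 1.61 in 2CLCs, 6.59, 6.35 and 7.45 in EpiSCs and 90.4, 90.5 and 93.6 in MEFs. It was higher than in ESCs in MEFs (log2 difference 5.61 ± 0.10, adjusted p = 9.39e-13), EpiSCs (log2 difference 2.04 ± 0.10, adjusted p = 1.26e-08) and, by less, 2CLCs (log2 difference 0.42 ± 0.10, adjusted p = 0.00211, 0.87 after median-of-ratios scaling). Phlda2 (chr7:143501545-143503150, minus strand), a small protein that limits placental growth, stood at 7.46, 8.45 and 7.72 FPKM in ESCs, 4.28, 3.91 and 4.78 in 2CLCs, 35, 41.4 and 40.1 in EpiSCs and 0.862, 0.546 and 0.772 in MEFs. It was highest in EpiSCs (log2 difference 2.16 ± 0.10, adjusted p = 1e-08) and lower in MEFs (log2 difference -2.37 ± 0.10, adjusted p = 1.25e-09), and its fall in 2CLCs (log2 difference -0.74 ± 0.10, adjusted p = 3.5e-05) was not called after median-of-ratios scaling (-0.09, adjusted p = 0.488).

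Ascl2 (chr7:142966829-142969264, minus strand), a transcription factor of the trophoblast lineage, stood at 0.418, 0.255 and 0.318 FPKM in ESCs, 1.7, 1.74 and 1.01 in 2CLCs, 1.34, 18.6 and 16.4 in EpiSCs and 0.405, 0.311 and 0.686 in MEFs. It was called higher in EpiSCs (log2 difference 2.80 ± 0.62, adjusted p = 0.00239), where replicate 1 was far below the other libraries (3.80 without it), and in 2CLCs every library was above the ESC libraries but the difference of 0.89 was not called (adjusted p = 0.218). Slc22a18, a membrane transporter, ranged from 0 to 1.72 FPKM over the cell states and was called higher in EpiSCs (1.14, adjusted p = 3.29e-05) and MEFs (0.72, adjusted p = 0.000653). Kcnq1ot1 (chr7:143203458-143296549, minus strand), the paternal noncoding RNA that silences the cluster, lies inside Kcnq1 on the opposite strand. In the lactate table it stood between 0.155 and 0.193 FPKM, under the filter, and Kcnq1 at no more than 0.0141.

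Peg3 (chr7:6703892-6730431, minus strand) and Usp29 (chr7:6730578-6967219, plus strand) start 147 bases apart on opposite strands, in the window printed above. Peg3 codes for a zinc finger protein that represses its targets, and Usp29 for a deubiquitinase-like protein. Peg3 stood at 7.13, 6.67 and 7.19 FPKM in ESCs, 5.02, 5.36 and 4.17 in 2CLCs, 14.6, 12.2 and 11.6 in EpiSCs and 79.4, 80.3 and 82.5 in MEFs. It was higher in EpiSCs (log2 difference 0.78 ± 0.09, adjusted p = 2.38e-05) and MEFs (log2 difference 3.35 ± 0.09, adjusted p = 3.84e-11). In 2CLCs the difference was -0.46 as deposited (adjusted p = 0.000872), 0.20 after median-of-ratios scaling (adjusted p = 0.0658) and -0.05 after quantile normalization (adjusted p = 0.645), so its direction there depends on scaling. Usp29 stood at 0.354, 0.216 and 0.278 FPKM in ESCs, 0.241, 0.49 and 0.338 in 2CLCs, 0.892, 0.882 and 0.744 in EpiSCs and 1.85, 1.37 and 1.64 in MEFs, with EpiSC and MEF libraries above those of ESCs (log2 difference 0.52 ± 0.09, adjusted p = 0.000349 and log2 difference 1.03 ± 0.09, adjusted p = 6.57e-07). Zim1 (chr7:6671269-6696450, minus strand), the maternal zinc finger gene beside Peg3, stood at 0.151, 0.186 and 0.217 FPKM in ESCs, 0.0142, 0 and 0.0764 in 2CLCs, 0.0318, 0.0421 and 0.0497 in EpiSCs and 6.72, 4.49 and 5.7 in MEFs, and thus reached 1 FPKM in MEFs alone.

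Peg10 (chr6:4747306-4760517, plus strand), a gene derived from a retrotransposon and needed for the placenta, starts 99 bases from Sgce (chr6:4674350-4747207, minus strand), which codes for epsilon-sarcoglycan of the cell membrane. The pair moved in opposite directions in EpiSCs and MEFs. Peg10 stood at 20.2, 19.6 and 18.9 FPKM in ESCs, 6.79, 5.76 and 8.01 in 2CLCs, 10.1, 5.99 and 5.89 in EpiSCs and 12.6, 11.8 and 12 in MEFs, lower than in ESCs in 2CLCs (log2 difference -1.40 ± 0.17, adjusted p = 1.15e-05, -0.70 after median-of-ratios scaling), EpiSCs (log2 difference -1.34 ± 0.17, adjusted p = 3.13e-05) and MEFs (log2 difference -0.65 ± 0.17, adjusted p = 0.004). Sgce stood at 0.544, 0.68 and 0.501 FPKM in ESCs, 0, 0.0887 and 0.122 in 2CLCs, 5.36, 3.56 and 4.33 in EpiSCs and 13.4, 14.4 and 13 in MEFs, higher in EpiSCs (log2 difference 1.77 ± 0.11, adjusted p = 1.61e-07) and MEFs (log2 difference 3.21 ± 0.11, adjusted p = 3.03e-10). In 2CLCs Sgce was close to 0 (log2 difference -0.56 ± 0.11, adjusted p = 0.000925), and with a pseudocount of 5 this was not called (adjusted p = 0.0637). Asb4, the maternal gene of this region that takes part in protein ubiquitination, reached 1.03 FPKM at most, in MEFs.

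The Snrpn-Ndn region of chromosome 7, the mouse counterpart of the Prader-Willi region, held paternal genes with unlike profiles. Snrpn (chr7:59982495-60140219, minus strand), which codes for the splicing protein SmN, stood at 97.9, 99.2 and 100.03 FPKM in ESCs, 64.8, 65.7 and 66.7 in 2CLCs, 193, 227 and 231 in EpiSCs and 10.2, 10.5 and 10.6 in MEFs. It was highest in EpiSCs (log2 difference 1.12 ± 0.06, adjusted p = 5.22e-08) and lowest in MEFs (log2 difference -3.13 ± 0.06, adjusted p = 3.19e-12). In 2CLCs the difference was -0.58 as deposited (adjusted p = 5.55e-06) and 0.18 after median-of-ratios scaling (adjusted p = 0.0296), a change of direction. Ndn (chr7:62346569-62350262, plus strand), which codes for the growth suppressor necdin, stood at 2.83, 2.6 and 2.73 FPKM in ESCs, 2.23, 2.24 and 2.56 in 2CLCs, 4.26, 4.69 and 5 in EpiSCs and 39.3, 40.5 and 39.3 in MEFs, with the highest values in MEFs (log2 difference 3.45 ± 0.07, adjusted p = 4.13e-12) and a smaller rise in EpiSCs (log2 difference 0.60 ± 0.07, adjusted p = 2.6e-05).

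Magel2 (chr7:62377010-62381640, plus strand), a necdin relative that takes part in protein ubiquitination, is a close neighbour of Ndn and had another profile. Magel2 stood at 0.316, 0.353 and 0.376 FPKM in ESCs, 10.1, 9.46 and 8.38 in 2CLCs, 6.36, 7.66 and 7.58 in EpiSCs and 0.177, 0.178 and 0.141 in MEFs. All 2CLC libraries (log2 difference 2.93 ± 0.09, adjusted p = 9.16e-11) and all EpiSC libraries (log2 difference 2.60 ± 0.09, adjusted p = 8.71e-10) were above those of ESCs and MEFs. The 2CLC mean was 26.7 times the ESC mean, the highest such ratio among the members. The MEF difference of -0.21 (adjusted p = 0.0487) lost its call in 10 of 13 alternatives.

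On the deposited scale several paternal genes were highest in ESCs. Zdbf2 (chr1:63273265-63314576, plus strand), known for a lasting effect on postnatal growth, stood at 20.9, 21.6 and 23.3 FPKM in ESCs, 0.657, 0.737 and 1.21 in 2CLCs, 12.7, 8.49 and 8.35 in EpiSCs and 2.07, 2.07 and 2.04 in MEFs. No state overlapped another, and Zdbf2 was lower in 2CLCs (log2 difference -3.63 ± 0.15, adjusted p = 1.41e-09), MEFs (log2 difference -2.91 ± 0.15, adjusted p = 7.01e-09) and EpiSCs (log2 difference -1.10 ± 0.15, adjusted p = 6.63e-05). Slc38a4 (chr15:96994820-97055956, minus strand), an amino acid transporter of placenta and liver, stood at 63, 60.9 and 62.1 FPKM in ESCs, 14.6, 14.5 and 14.9 in 2CLCs, 13.2, 10.1 and 8.68 in EpiSCs and 31, 31.6 and 32.8 in MEFs. It was lower in EpiSCs (log2 difference -2.45 ± 0.11, adjusted p = 7.79e-09), MEFs (log2 difference -0.94 ± 0.11, adjusted p = 9.43e-06) and 2CLCs (log2 difference -2.01 ± 0.11, adjusted p = 1.5e-08, -1.27 after median-of-ratios scaling). Mest (chr6:30723547-30748465, plus strand) stood at 79, 78 and 77.8 FPKM in ESCs, 71.5, 65.6 and 65.6 in 2CLCs, 82, 51.1 and 51.4 in EpiSCs and 20.3, 18.9 and 18.8 in MEFs. It was lower in MEFs (log2 difference -1.96 ± 0.15, adjusted p = 1.84e-07). In 2CLCs it was not called as deposited (-0.21, adjusted p = 0.21) and was higher after median-of-ratios scaling (0.55, adjusted p = 0.0056). In EpiSCs replicate 1 lay above the ESC libraries and the others below them, and the difference of -0.38 (adjusted p = 0.0427) became -0.60 without that library.

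Impact, a regulator of protein synthesis under amino acid shortage, stood at 43.3, 40.8 and 44.5 FPKM in ESCs, 18.7, 19.1 and 21.7 in 2CLCs, 2.14, 1.97 and 1.92 in EpiSCs and 45.2, 44.6 and 48.4 in MEFs. It was lower in EpiSCs (log2 difference -3.87 ± 0.07, adjusted p = 8.3e-12) and 2CLCs (log2 difference -1.07 ± 0.07, adjusted p = 5.84e-08, -0.33 after median-of-ratios scaling), and not called in MEFs as deposited (adjusted p = 0.2; 0.30, adjusted p = 0.00223 after median-of-ratios scaling). Inpp5f (chr7:128611328-128696425, plus strand), a phosphoinositide phosphatase, stood at 4.86, 5 and 5.25 FPKM in ESCs, 1.24, 1.42 and 1.29 in 2CLCs, 12, 12.5 and 12.2 in EpiSCs and 7.05, 7.33 and 6.71 in MEFs. It was higher in EpiSCs (log2 difference 1.13 ± 0.07, adjusted p = 7.32e-08) and MEFs (log2 difference 0.41 ± 0.07, adjusted p = 0.000152) and lower in 2CLCs (log2 difference -1.38 ± 0.07, adjusted p = 5.28e-09, -0.87 after median-of-ratios scaling). Gnas (chr2:174284320-174346744, plus strand) stood at 68, 56.1 and 66.9 FPKM in ESCs, 64.1, 60.6 and 60.4 in 2CLCs, 368, 407 and 430.1 in EpiSCs and 525, 461 and 417 in MEFs, higher in EpiSCs (log2 difference 2.64 ± 0.10, adjusted p = 1.69e-09) and MEFs (log2 difference 2.86 ± 0.10, adjusted p = 2.12e-10), with 2CLC and ESC libraries overlapping on the deposited scale (0.72 in 2CLCs after median-of-ratios scaling). The Gnas row sums its paternal, maternal and biallelic transcripts.

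The remaining paternal genes lie inside or across another gene, and the host went another way in some states and the same way in others. Nnat (chr2:157560078-157562522, plus strand), which codes for the membrane protein neuronatin, lies within Blcap on the opposite strand and stood at 19.8, 16.3 and 16.3 FPKM in ESCs, 2.59, 2.61 and 1.44 in 2CLCs, 2.35, 1.99 and 2.34 in EpiSCs and 25.8, 25.7 and 24.1 in MEFs. Nnat was lower in 2CLCs (log2 difference -2.54 ± 0.14, adjusted p = 1.98e-08) and EpiSCs (log2 difference -2.51 ± 0.14, adjusted p = 5.44e-08) and higher in MEFs (log2 difference 0.51 ± 0.14, adjusted p = 0.00674), while Blcap was lower in 2CLCs (-0.94) and higher in EpiSCs (0.65) and MEFs (1.54). After median-of-ratios scaling Blcap was no longer called lower in 2CLCs. Of the 5 tested host genes, 3 were then higher there and 0 lower (all genes 38.4% and 31.7%). Mcts2 (chr2:152687035-152687946, plus strand) lies within H13 on the same strand and stood at 29.1, 30.7 and 31.3 FPKM in ESCs, 39.3, 42.3 and 35.1 in 2CLCs, 18.6, 14.7 and 14 in EpiSCs and 7.49, 8.84 and 7.89 in MEFs. It was lower in MEFs (log2 difference -1.79 ± 0.11, adjusted p = 2.39e-08) and EpiSCs (log2 difference -0.91 ± 0.11, adjusted p = 1.94e-05) and higher in 2CLCs (log2 difference 0.34 ± 0.11, adjusted p = 0.0117, 1.09 after median-of-ratios scaling, adjusted p = 0.0521 without 2CLC replicate 2). H13, a signal peptide peptidase, was higher in EpiSCs (1.08, adjusted p = 1.09e-05) and MEFs (2.36, adjusted p = 4.83e-09).

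Zrsr1 (chr11:22972005-22976496, plus strand), a splicing factor gene copied by retrotransposition into Commd1, stood at 8.32, 9.44 and 7.6 FPKM in ESCs, 11.6, 14.1 and 13.2 in 2CLCs, 3.81, 2.92 and 3.03 in EpiSCs and 3.22, 2.84 and 3.18 in MEFs. It was lower in EpiSCs (log2 difference -1.15 ± 0.11, adjusted p = 3.33e-06) and MEFs (log2 difference -1.21 ± 0.11, adjusted p = 9.42e-07) and higher in 2CLCs (log2 difference 0.56 ± 0.11, adjusted p = 0.000542, 1.27 after median-of-ratios scaling), while Commd1 was lower in EpiSCs (-0.35), MEFs (-0.55) and 2CLCs (-0.48). The fall of Commd1 in 2CLCs holds on the deposited scale and was not called after median-of-ratios scaling. Peg13 (chr15:72805600-72810324, minus strand), a noncoding RNA within Trappc9 on the same strand, stood at 0.843, 0.929 and 0.746 FPKM in ESCs, 0.22, 0.224 and 0.348 in 2CLCs, 0, 0.013 and 0 in EpiSCs and 6.66, 5.48 and 6.47 in MEFs. It was high in MEFs (log2 difference 1.97 ± 0.08, adjusted p = 6.82e-10) and lower than in ESCs in EpiSCs (log2 difference -0.87 ± 0.08, adjusted p = 2.22e-06) and 2CLCs (log2 difference -0.54 ± 0.08, adjusted p = 5.59e-05, -0.31 after median-of-ratios scaling), while Trappc9 differed from ESCs by no more than 0.44 in any state. Nap1l5, a nucleosome assembly family gene inside Herc3, stayed between 0.128 and 0.837 FPKM in the cell states, while Herc3 was higher in 2CLCs (0.78), EpiSCs (1.56) and MEFs (0.67).

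Summed over genes, the maternal members stood at 45.9 ± 1.66 FPKM in ESCs, 85.2 ± 9.23 in 2CLCs, 499.2 ± 8.02 in EpiSCs and 1598 ± 10.5 in MEFs, and the paternal members at 430.0 ± 2.12, 279.5 ± 2.33, 380.3 ± 6.29 and 1052 ± 20.8 (SD, n = 3). Without H19 the maternal sum in MEFs was 737.1 ± 5.46, and without Igf2 the paternal sum there was 384.3 ± 8.56. On the deposited scale the top state of the paternal sum therefore rests on Igf2. With it MEFs stood highest, and without it ESCs did, at 429.3 ± 2.13. Median-of-ratios scaling moved abundant paternal genes upward in 2CLCs against ESCs, such as Mest (-0.21 to 0.55) and Snrpn (-0.58 to 0.18). The sums were not taken after that scaling, and the order of states there was not tested. Among tested genes 7 maternal members were highest in MEFs and 4 in EpiSCs, and none in ESCs or 2CLCs. Paternal members were highest in MEFs in 10 cases, in ESCs in 5, in 2CLCs in 3 and in EpiSCs in 2. These tallies hold on the deposited scale. Zim1 among the maternal and Airn, Usp29 and Peg13 among the paternal members passed the filter only through MEFs. They had to be highest there, so the tallies support nothing by themselves, and no such tally was made over all genes. After median-of-ratios scaling Mest (0.55) and Plagl1 (0.64), both among those highest in ESCs, were higher in 2CLCs than in ESCs. The fibroblast markers summed to 1.30% of their MEF level in EpiSCs, where Meg3, Rian and Grb10 stood at 114, 184 and 107 FPKM against 155, 202 and 158 in MEFs. Of the 8 markers, 6 were called higher in EpiSCs than in ESCs and 0 lower (all genes 33.2% and 26.5%). Thy1 stood there at 9.89% of its MEF level, Pdgfrb at 6.51% and Col1a1 at 0.276%. The part of fibroblasts in these EpiSC levels was not tested.

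With sodium lactate, imprinted genes in ESCs moved in both directions and mostly alike at 60 and 80 mM. The genes that rose at both doses were the paternal Peg10, Sgce, Usp29, Slc38a4, Inpp5f and Plagl1 and the maternal H19 and Igf2r. The genes that fell at both were the paternal Mest, Impact, Mcts2 and Peg13 and the maternal Meg3, Rian, Mirg and Phlda2. Both comparisons share the 0 mM libraries, so their likeness is no independent result. Of the 35 members 26 were tested, and Igf2, Airn, Zim1, Asb4, Magel2, Cdkn1c, Kcnq1ot1, Slc22a18 and Nap1l5 did not pass the filter. Usp29 was under 1 FPKM in every 0 mM library and passed through the 60 and 80 mM libraries, so its rise follows from the filter, and Sgce reached 1 FPKM in 1 library at 0 mM and in all at 60 and 80 mM. Peg13 reached it in all 0 mM libraries and in 1 at 60 mM and 2 at 80 mM.

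At 60 mM 8 members were called higher and 9 lower, where 23.5% and 18.6% of all 13271 genes were. At 80 mM 11 were higher and 10 lower (all genes 30.0% and 23.1%). Changes of at least 1 were all rises: 3 members at 60 mM (all genes 1.15%) and 5 at 80 mM (3.29%), and no member fell by as much (0.603% and 1.03% of all genes). Usp29, and Sgce at 80 mM, are among these rises, so the counts rest in part on members that passed the filter where they were high. Between 60 and 80 mM, 5 members rose (4.06% of all genes) and none fell (2.11%). By allele, 2 of 8 tested maternal genes were higher and 4 lower at 60 mM, and 2 higher and 5 lower at 80 mM. Paternal genes were 6 higher and 5 lower of 17 at 60 mM, and 9 higher and 5 lower at 80 mM. The median difference of members was -0.12 at 60 mM (all genes 0.03) and -0.13 at 80 mM (0.03). After median-of-ratios scaling the share of calls over all genes that were higher went from 56.5% to 45.4% at 80 mM, and from 65.8% to 49.1% between 60 and 80 mM. Members then called lower that were not called as deposited were Dlk1, Nnat and Zdbf2 at 60 mM (-0.31, -0.36 and -0.19), Peg3 at 80 mM (-0.22), and Impact, Mcts2 and Zdbf2 from 60 to 80 mM (-0.22, -0.23 and -0.24), while Ndn at 80 mM and Snrpn between the doses lost their calls.

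**Figure D3:**
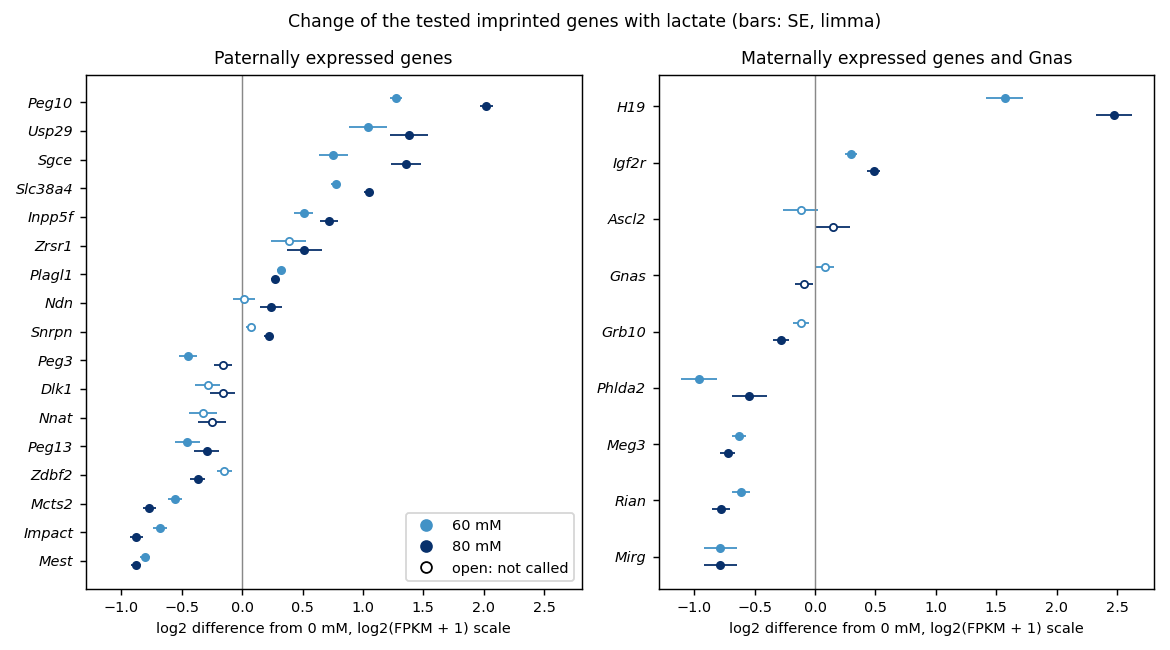
Difference of each of the 26 tested members from 0 mM lactate at 60 and 80 mM, on the log2(FPKM + 1) scale, with bars for the standard error and open circles where the difference was not called. H19 and Peg10 show the widest rises at 80 mM on this scale, 2.47 and 2.02, and Mest and Impact the widest falls, -0.88 and -0.87.

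H19 had the widest rise on the log2(FPKM + 1) scale, while by the ratio of means Usp29 rose further, 8.6 times at 60 mM and 12.9 times at 80 mM from under 0.2 FPKM. H19 stood at 6.46, 4.38 and 6.05 FPKM at 0 mM, 20.5, 17.5 and 17.6 at 60 mM and 43.9, 34.3 and 29.5 at 80 mM, and no dose overlapped another. The difference from 0 mM was 1.57 ± 0.15, adjusted p = 3.4e-05 at 60 mM and 2.47 ± 0.15, adjusted p = 8.91e-07 at 80 mM, and H19 rose again from 60 to 80 mM (log2 difference 0.90 ± 0.15, adjusted p = 0.00888; adjusted p = 0.0516 with no filter on low values). The mean at 80 mM was 6.37 times that at 0 mM. Its neighbour Igf2, under the filter, stood at 0.841, 0.796 and 0.835 FPKM at 0 mM, 0.654, 0.454 and 0.108 at 60 mM and 0.585, 0.158 and 0.0718 at 80 mM, with every lactate library below those at 0 mM. The 8 fibroblast markers summed to 1.12 FPKM at 0 mM, 3.96 at 60 mM and 5.51 at 80 mM, or 0.115%, 0.409% and 0.568% of their MEF level, and H19 to 0.654%, 2.15% and 4.17% of its own. Both fibroblast markers that passed the filter were called higher at both doses: Thy1, at 0.5, 2.93 and 4.1 FPKM (0.676%, 3.97% and 5.55% of its MEF level), and Pdgfrb, at 0.423, 0.744 and 1.12 FPKM (2.61%, 4.59% and 6.89%). Neither reached 1 FPKM in all 0 mM libraries, and both passed through libraries with lactate, so their rise follows from the filter. After median-of-ratios scaling 1 fibroblast marker was tested, and it was higher at both doses. Lum, under the filter, stood at 0.0867, 0.0226 and 0.0325 FPKM. Col1a1 stood at 0.095, 0.103 and 0.11 FPKM (0.0306%, 0.0332% and 0.0355% of its MEF level), and Postn and Twist2 were listed at 0 in every library at 0 and 80 mM. The other collagen markers stood at no more than 0.0373% of their MEF level at any dose, and the part of fibroblasts in the rise of H19 was not tested.

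Peg10 and Sgce, with starts 99 bases apart, rose together with lactate. Peg10 stood at 12.3, 11.6 and 11.8 FPKM at 0 mM, 30.8, 29.9 and 29.7 at 60 mM and 52.9, 54.1 and 47.3 at 80 mM, with no overlap between doses (log2 difference 1.27 ± 0.05, adjusted p = 1.49e-07 at 60 mM; log2 difference 2.02 ± 0.05, adjusted p = 4.29e-09 at 80 mM). Sgce stood at 1.01, 0.974 and 0.561 FPKM at 0 mM, 2.2, 1.86 and 2.26 at 60 mM and 3.81, 4.2 and 3.18 at 80 mM, also with no overlap (log2 difference 0.76 ± 0.12, adjusted p = 0.000891 at 60 mM; log2 difference 1.36 ± 0.12, adjusted p = 1.15e-05 at 80 mM). From 60 to 80 mM Peg10 rose by 0.75 (adjusted p = 0.000261) and Sgce by 0.60 (adjusted p = 0.0216). Slc38a4 stood at 38.7, 39 and 37 FPKM at 0 mM, 65.5, 66.5 and 66.3 at 60 mM and 83.7, 80.3 and 76.5 at 80 mM, and rose at 60 mM (log2 difference 0.77 ± 0.04, adjusted p = 4.82e-07), at 80 mM (log2 difference 1.05 ± 0.04, adjusted p = 3.2e-08) and from 60 to 80 mM (0.27, adjusted p = 0.00392). Snrpn completed the 5 members called between the doses (0.15, adjusted p = 0.0348, a call lost in 9 of 13 alternatives), and the call of Sgce was lost in 6. The count of 5 was 3 without 60 mM replicate 1 or 2 or 80 mM replicate 1 or 2, where Sgce and Snrpn were among the calls lost.

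The head-to-head genes Usp29 and Peg3 went apart. Usp29 stood at 0.197, 0.152 and 0.136 FPKM at 0 mM, 1.26, 1.48 and 1.44 at 60 mM and 1.64, 3.04 and 1.6 at 80 mM, and all libraries with lactate were above all without (log2 difference 1.04 ± 0.16, adjusted p = 0.000562 at 60 mM; log2 difference 1.38 ± 0.16, adjusted p = 5.17e-05 at 80 mM). Peg3 stood at 4.63, 4.44 and 4.4 FPKM at 0 mM, 2.85, 2.93 and 3.3 at 60 mM and 3.93, 4.23 and 3.6 at 80 mM. It was lower at 60 mM (log2 difference -0.45 ± 0.08, adjusted p = 0.00103), and at 80 mM it was not called (adjusted p = 0.102), although its libraries there were below those at 0 mM. Zim1 was listed at no more than 0.687 FPKM at any dose.

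The Dlk1-Meg3 noncoding RNAs fell together. Meg3 stood at 81.7, 70.0 and 75.5 FPKM at 0 mM, 50.5, 47.9 and 46.8 at 60 mM and 43.2, 45 and 48 at 80 mM. Rian stood at 100.02, 96 and 88.5 FPKM at 0 mM, 67, 60.3 and 57.9 at 60 mM and 50.4, 54.3 and 60.6 at 80 mM. Mirg stood at 12.3, 12.1 and 13.6 FPKM at 0 mM, 6.1, 5.93 and 9.14 at 60 mM and 6.54, 6.54 and 7.79 at 80 mM. In each case every library with lactate was below every library without. At 60 mM the differences were -0.63 ± 0.06, adjusted p = 2.79e-05 for Meg3, -0.61 ± 0.07, adjusted p = 0.000144 for Rian and -0.78 ± 0.13, adjusted p = 0.00113 for Mirg. At 80 mM they were -0.72, -0.77 and -0.78 (adjusted p = 5.55e-06, 1.64e-05 and 0.000737), and no difference between 60 and 80 mM was called. Dlk1, their paternal neighbour, ranged from 1.47 to 2.21 FPKM over the doses and was not called (adjusted p = 0.0526 at 60 mM and 0.227 at 80 mM).

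Mest and Impact fell at both doses. Mest stood at 45.8, 45.1 and 45.4 FPKM at 0 mM, 25.2, 26.3 and 25.3 at 60 mM and 25.4, 23.1 and 24.2 at 80 mM (log2 difference -0.80 ± 0.04, adjusted p = 6.12e-07 at 60 mM; log2 difference -0.88 ± 0.04, adjusted p = 1.41e-07 at 80 mM). Impact stood at 47, 46.1 and 46.5 FPKM at 0 mM, 26, 29.3 and 31.1 at 60 mM and 24.4, 25.7 and 24.7 at 80 mM (log2 difference -0.68 ± 0.06, adjusted p = 1.63e-05 at 60 mM; log2 difference -0.87 ± 0.06, adjusted p = 1.4e-06 at 80 mM). Neither was called between 60 and 80 mM as deposited. Mcts2 stood at 25.6, 24.1 and 24.1 FPKM at 0 mM, 16.1, 17.2 and 15.9 at 60 mM and 13.6, 15.2 and 13.3 at 80 mM, and all of its libraries with lactate were below those without (log2 difference -0.56 ± 0.06, adjusted p = 5.07e-05 at 60 mM; log2 difference -0.77 ± 0.06, adjusted p = 3.17e-06 at 80 mM). Its host H13 fell by less, -0.16 at 60 mM and -0.18 at 80 mM (adjusted p = 0.0195 and 0.00908). Peg13 stood at 1.46, 1.59 and 1.54 FPKM at 0 mM, 0.669, 0.871 and 1.03 at 60 mM and 1.24, 0.923 and 1.04 at 80 mM (log2 difference -0.45 ± 0.10, adjusted p = 0.00619 at 60 mM; log2 difference -0.29 ± 0.10, adjusted p = 0.036 at 80 mM, a call lost in 8 of 13 alternatives), and its host Trappc9 was not called.

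**Figure D4:**
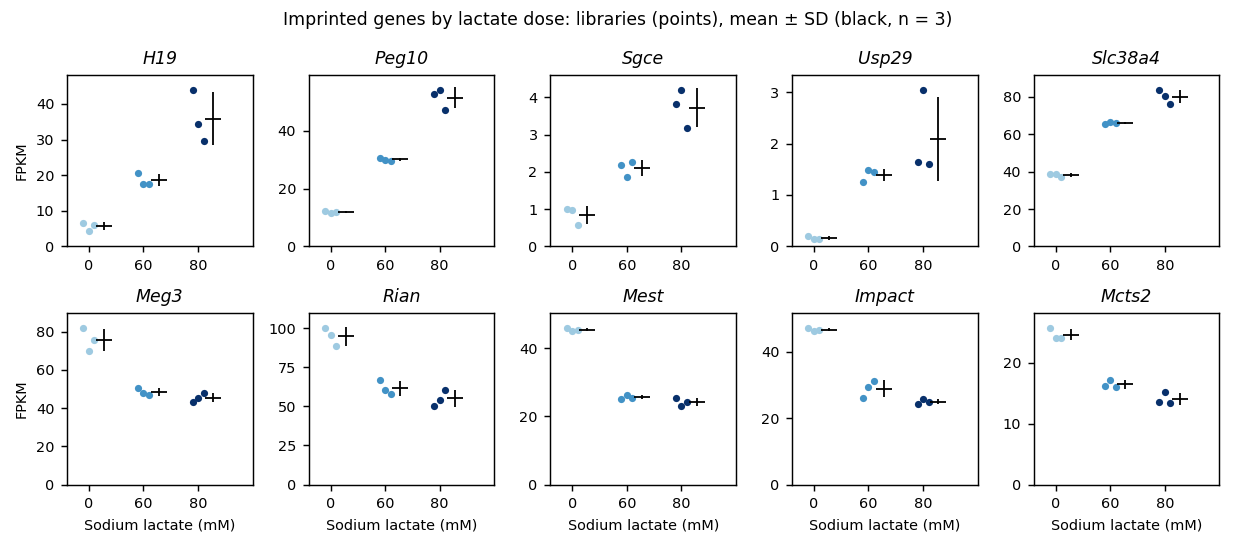
FPKM of 10 imprinted genes by sodium lactate dose, with each library a colored point and the mean ± SD (n = 3) in black on axes that start at 0. H19, Peg10, Sgce, Usp29 and Slc38a4 are higher with lactate, and Meg3, Rian, Mest, Impact and Mcts2 are lower.

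Growth regulators moved in both directions. Phlda2, which limits placental growth, stood at 2.06, 2.51 and 2.41 FPKM at 0 mM, 0.386, 0.691 and 1.11 at 60 mM and 1.46, 1.15 and 1.23 at 80 mM (log2 difference -0.96 ± 0.15, adjusted p = 0.000556 at 60 mM; log2 difference -0.54 ± 0.15, adjusted p = 0.00995 at 80 mM), the widest fall of a tested member at 60 mM on the log2 scale. Plagl1 stood at 66.2, 65.2 and 63.5 FPKM at 0 mM, 78.3, 82.4 and 83.2 at 60 mM and 79.5, 79.3 and 77.5 at 80 mM, higher at both doses (log2 difference 0.32 ± 0.03, adjusted p = 4.58e-05; log2 difference 0.27 ± 0.03, adjusted p = 6.1e-05). Igf2r stood at 13.2, 12.8 and 13 FPKM at 0 mM, 16.4, 15.4 and 16.8 at 60 mM and 19.2, 19.4 and 17.3 at 80 mM, also higher at both (log2 difference 0.30 ± 0.05, adjusted p = 0.00153; log2 difference 0.48 ± 0.05, adjusted p = 3.97e-05). Inpp5f, the phosphatase gene, followed the same course at 2.68, 2.92 and 2.68 FPKM at 0 mM, 4.39, 4.42 and 4.24 at 60 mM and 4.68, 5.16 and 5.75 at 80 mM (log2 difference 0.51 ± 0.08, adjusted p = 0.000541; log2 difference 0.72 ± 0.08, adjusted p = 3.3e-05). In these 3 rising genes no library with lactate overlapped those at 0 mM. Grb10 stood at 4.9, 4.88 and 5.32 FPKM at 0 mM, 4.49, 4.51 and 4.71 at 60 mM and 3.9, 4.26 and 3.73 at 80 mM, and was called lower at 80 mM alone (log2 difference -0.28 ± 0.07, adjusted p = 0.00539). The difference at 60 mM was -0.11 (adjusted p = 0.199), and no difference between the doses was called.

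Snrpn, Ndn, Zrsr1 and Zdbf2 were called at 80 mM and not at 60 mM. Of these Snrpn was also called between the doses, a call lost in 9 of 13 alternatives, and on the deposited scale no difference between the doses was called for the others. Snrpn stood at 51.5, 53.6 and 55.8 FPKM at 0 mM, 57.1, 55.7 and 55.9 at 60 mM and 61.1, 63.5 and 63.1 at 80 mM (log2 difference 0.22 ± 0.04, adjusted p = 0.000503 at 80 mM). Ndn stood at 1.43, 1.64 and 1.65 FPKM at 0 mM, 1.52, 1.58 and 1.68 at 60 mM and 1.96, 1.83 and 2.31 at 80 mM (log2 difference 0.24 ± 0.09, adjusted p = 0.047 at 80 mM, a call lost in 11 of 13 alternatives). Zrsr1 stood at 11.5, 11.2 and 10.9 FPKM at 0 mM, 13.9, 15.4 and 15.5 at 60 mM and 12.3, 17 and 21 at 80 mM (log2 difference 0.51 ± 0.14, adjusted p = 0.0126 at 80 mM; adjusted p = 0.0550 with no filter), and its host Commd1 was not called. The 80 mM libraries of Zrsr1 spread more widely than those of the other doses, and all were above those at 0 mM. Zdbf2 stood at 9.42, 9.78 and 9.27 FPKM at 0 mM, 8.01, 8.66 and 8.73 at 60 mM and 6.94, 7.71 and 6.75 at 80 mM, with a fall at 80 mM (log2 difference -0.37 ± 0.06, adjusted p = 0.000666).

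Nnat, Ascl2 and Gnas were not called at either dose. Nnat ranged from 2.68 to 4.44 FPKM over the doses, Ascl2 from 0.856 to 1.92 and Gnas from 61.6 to 80.2, while Blcap, which spans Nnat, was lower at both doses (-0.32 and -0.41). Among genes under the filter, Cdkn1c stood at 0.861, 0.846 and 0.664 FPKM at 0 mM, 0.521, 0.583 and 0.506 at 60 mM and 0.474, 0.449 and 0.572 at 80 mM, and Magel2 at 0.111, 0.166 and 0.177 FPKM at 0 mM, 0.44, 0.502 and 0.371 at 60 mM and 0.462, 0.543 and 0.37 at 80 mM. Herc3, the host of Nap1l5, was higher at both doses (0.48 and 0.60), and Nap1l5 ranged from 0.348 to 0.911 FPKM. Summed, maternal members stood at 211.6 ± 9.97 FPKM at 0 mM, 159.5 ± 6.97 at 60 mM and 169.9 ± 2.45 at 80 mM, and paternal members at 325.5 ± 2.45, 347.9 ± 6.47 and 385.1 ± 6.57 (SD, n = 3).

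Other cell type markers moved with lactate beside these changes. The 6 markers of 2CLCs summed to 26.4 to 28.0 FPKM at 0 mM, 56.9 to 62.2 at 60 mM and 92.9 to 96.1 at 80 mM, against 10648 to 11827 in 2CLCs, while H19 and Peg10, at 35.9 and 51.4 FPKM at 80 mM, stood at 4.32 and 6.85 in 2CLCs. ESC markers summed to 1667 to 1721, 1886 to 1958 and 1967 to 2036 FPKM. The 6 EpiSC markers, Dnmt3b among them, summed to 67.5 to 72.3, 88.5 to 96.4 and 93.8 to 97.5 FPKM (2 of 4 tested higher and 1 lower at each dose). The 7 trophoblast markers went from 18.4 to 19.5 FPKM at 0 mM to 26.0 to 28.1 at 80 mM (2 of 4 tested higher, 1 lower), the 7 neural markers from 44.3 to 47.0 down to 18.6 to 22.8 (2 of 2 tested lower), and the 6 primitive endoderm markers summed to at most 2.16. The part of EpiSC, trophoblast and neural markers in the results was not tested.

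Genes that keep or erase imprints were counted from a list of 18, all tested. In 2CLCs 1 was called higher and 13 lower (all genes 20.1% and 56.4%), and after median-of-ratios scaling 5 higher and 11 lower (38.4% and 31.7%). In EpiSCs 4 were higher and 13 lower (33.2% and 26.5%), and in MEFs 1 and 15 (34.4% and 40.9%). At 60 mM 6 were higher and 5 lower (23.5% and 18.6%), and at 80 mM 7 and 7 (30.0% and 23.1%). Zfp57, whose protein binds methylated imprint control regions, stood at 281 ± 5.08 FPKM in ESCs, 95.8 ± 8.59 in 2CLCs, 26.6 ± 1.73 in EpiSCs and 25.9 ± 1.44 in MEFs, and at 270.2 ± 3.6, 282 ± 7.45 and 297 ± 0.63 with 0, 60 and 80 mM lactate. Zfp445 was lower in 2CLCs (-2.21) and MEFs (-0.80) and not called in EpiSCs or with lactate. Trim28, their partner, was lower in EpiSCs (-1.11) and MEFs (-2.84), and higher at 60 mM (0.19) and 80 mM (0.29).

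The maintenance methylation genes fell with lactate while an antagonist rose. Dnmt1 stood at 82.4 ± 0.959, 71.6 ± 0.578 and 65.8 ± 3.02 FPKM at 0, 60 and 80 mM (log2 difference -0.32 ± 0.04, adjusted p = 3.84e-05 at 80 mM). Uhrf1, which brings DNMT1 to replicated DNA, stood at 199.8 ± 4.03, 151 ± 1.32 and 124 ± 5 (log2 difference -0.69 ± 0.03, adjusted p = 1.49e-07). Dppa3, whose protein is known to limit UHRF1 and to guard maternal marks in the zygote, stood at 2.51, 2.58 and 2.83 FPKM at 0 mM, 21.4, 22.7 and 21.3 at 60 mM and 36.1, 39.1 and 34.8 at 80 mM (log2 difference 3.37 ± 0.06, adjusted p = 6.67e-10). In the cell states Dppa3 stood at 0.53 ± 0.323 in ESCs and 9.12 ± 0.465 in 2CLCs (log2 difference 2.75 ± 0.13, adjusted p = 4.05e-09). Dnmt3l, a cofactor of de novo methylation, stood at 207 ± 5.51, 112 ± 2.73 and 114 ± 2.91 at the rising doses (log2 difference -0.86 ± 0.03, adjusted p = 3.45e-08 at 80 mM). The de novo methyltransferase genes went the other way: Dnmt3a was higher at 60 mM (0.36, adjusted p = 0.00507) and 80 mM (0.48, adjusted p = 0.000652), as was Dnmt3b (0.45, adjusted p = 5.2e-05, and 0.53, adjusted p = 8.8e-06). Both were named after their values were seen. Tet2, which oxidizes methylated cytosine, was lower in 2CLCs (-3.02), EpiSCs (-3.05) and MEFs (-2.50) and higher at 60 mM (0.37) and 80 mM (0.40). Methylation itself was not measured in these files.

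A further list of 38 imprinted genes, chosen for completeness, had 28 tested in the cell states and 20 with lactate. In 2CLCs 4 were higher and 15 lower (all genes 20.1% and 56.4%), and after median-of-ratios scaling 7 higher and 6 lower (38.4% and 31.7%). In EpiSCs 9 were higher and 7 lower (33.2% and 26.5%), and in MEFs 13 and 14 (34.4% and 40.9%). The largest called changes in 2CLCs were in Dhcr7, a cholesterol synthesis enzyme (2.05), Ddc (-1.88), Ppp1r9a (-1.74) and Ube3a (-1.71). In EpiSCs they were in Calcr, the calcitonin receptor (4.14), Gab1 (-3.36), Ddc (-2.65) and Jade1 (-2.46), and in MEFs in Osbpl5 (5.04), Tnfrsf23 (4.56), Gab1 (-4.27) and Dcn, a fibroblast matrix proteoglycan (4.27). With lactate 4 were higher and 6 lower at 60 mM (23.5% and 18.6%), and 5 and 5 at 80 mM (30.0% and 23.1%). The largest were in Dact2 (-1.10 and -0.92 at 60 and 80 mM), Sfmbt2 (0.53 and 0.77), Pon2 (0.54 and 0.66) and Dhcr7 (0.37 and 0.60).

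ESCs without lactate appear in both tables, and several members stood at different levels in them. The tables were normalized separately and the labels do not relate their cultures, so the values are set side by side with no test. Mean FPKM in the ESC libraries of the cell-state table and at 0 mM was 9.62 and 75.7 for Meg3, 17.4 and 94.8 for Rian, and 0.783 and 12.7 for Mirg. For H19 the levels were 0.452 and 5.63, and for Plagl1 30.1 and 65. Zdbf2, Nnat and Mest went the other way, with 21.9 and 9.49, 17.5 and 4.12, and 78.3 and 45.4 FPKM. Gnas (63.6 and 72.8) and Impact (42.9 and 46.5) were listed at similar levels. The level of Meg3, Rian and Mirg at 80 mM (45.4, 55.1 and 6.96 FPKM) was thus still above that of the ESC libraries of the other table.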

How the data were processed

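Per the labels' protocols a TruSeq kit was used on Trizol-extracted total RNA. Read depth, gene annotation and strand use are not given in the sources used here. The FPKM values were deposited by the authors as 2 tables of genes by libraries, normalized apart. The submitters' processing notes name HISAT2 2.0.4, StringTie 2.1.4 and the mm10 build. Rows with the same gene name were summed. Each table was fitted once with all of its groups in limma 3.58.1 (R 4.3.3, trend option) on log2(FPKM + 1), for genes that reached 1 FPKM in 3 or more libraries, and p-values were Benjamini-Hochberg adjusted over all genes tested, with 0.05 as threshold. The procedure was tested on simulated data. The members and lists were chosen with earlier results of these data known. Every library's value is given for members called with a change of at least 1 in a cell-state comparison and a group mean of at least 5 FPKM, and for members called with lactate. Loci are from GENCODE M21 and sequences from RefSeq, both on GRCm38. Alternatives were the pseudocount, the filter, 2 other scalings, fits of 2 groups, a replicate block, a minimum change and leaving out each library. Replicate numbers did not pair libraries, as their deviations correlated at -0.03 to 0.072.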

Additional observations from a re-analysis of the deposited data

How the results depend on the processing

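Of 121 called differences of single members, 107 kept their call wherever the member was tested, and the other 14 did not. The minimum change is left aside here. Members that fell under the filter in an alternative were not tested there and not counted as lost. Members that passed only through MEFs were among these when a MEF library was left out. The count of members called higher in 2CLCs was 18 with median-of-ratios scaling (all genes 38.4%). There Peg3 (0.20, adjusted p = 0.0658 by limma) and Snrpn (0.18, adjusted p = 0.0296) turned direction in 2CLCs, and the cause was not tested. With a minimum change of 1, which makes each call stricter, 4 members were higher and 6 lower in 2CLCs, 3 higher and 0 lower at 60 mM, 5 higher and 0 lower at 80 mM, and 0 higher between 60 and 80 mM. Between these doses 2 members were called higher with no filter on low values, 3 lower with median-of-ratios scaling and 2 lower with quantile normalization, and the cause was not tested. Over all genes 321 of 32921, 466 of 13245 and 338 of 13272 were called so. Leaving out each library in turn gave 3 to 5 higher and 0 to 1 lower members there. With the replicate number as a block, the counts higher and lower were 8 and 11 in 2CLCs, 18 and 12 in EpiSCs, 20 and 8 in MEFs, 9 and 9 at 60 mM, 10 and 9 at 80 mM, and 4 and 0 between the doses. Over all 16358 genes of the states they were 3285 and 9198, 5348 and 4225, and 5602 and 6656. Over all 13271 genes with lactate they were 3031 and 2386, 3928 and 3025, and 423 and 200. The numbers do not pair the libraries. A pseudocount of 0.1 moved 23 called values by over 1.5 times and one of 5 moved 50. Read depth is unknown, so no counting error can be given for low values.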
